A study of Homo sapiens with 6 samples.

Results

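Interferon-linked members of the PARP family (PARP9, PARP10, PARP12 and PARP14), the partner protein DTX3L and the antiviral protein ZC3HAV1 were followed in A2780 ovarian cancer cells. The 6 genes were chosen by name, with their values in these libraries already known, and counts were summed over all transcript rows of each gene. Of the 6 genes, 5 had a row among the 16571 gene symbols of the table, in 7 of its 21368 transcript rows. PARP12 was not analysed here. PARP10 had at most 2 counts in any library and fell under the filter on low counts, so 4 genes, PARP9, PARP14, DTX3L and ZC3HAV1, entered the fit of 10695 genes.

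Total RNA was sequenced from 6 libraries of A2780, a cell line that the labels class as serous ovarian cancer. Both groups had been infected with lentivirus, 3 libraries with the control vector pGIPZ-NC and 3 with a vector carrying a hairpin against the splicing factor USP39, called shUSP39. According to the methods of the study, infected cells were selected with puromycin, so each group stands for a selected cell population, and which of the study's hairpins the shUSP39 libraries carried is not stated. The libraries of a group were described as biological triplicates. Whether each came from its own infection is not stated, and the p-values measure the spread between these libraries only.

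The libraries held 28294819 to 32939264 counts. Reads of 12662 to 12819 genes were found in the pGIPZ-NC libraries and in shUSP39 replicate 1, against 15446 genes in shUSP39 replicate 2 and 14890 genes in shUSP39 replicate 3, and these last libraries stand apart in that respect. Values are therefore also given without shUSP39 replicates 2 and 3 where this changed a call. USP39 was not analysed here, so the knock-down was not checked. Of the epithelial markers, CDH1 had at most 1 count and EPCAM at most 6 counts in a library, and of the serous ovarian markers PAX8 had at most 6 while MUC16 had 5, 1 and 1 counts in pGIPZ-NC and 6, 150 and 71 in shUSP39, high in the libraries that stand apart. The leukocyte markers summed to 9.32 to 11.98 CPM (counts of a gene per 1000000 counts of the library) in pGIPZ-NC and to 11.48 to 12.24 CPM in shUSP39, nearly all of it CD68, while PTPRC had at most 7 counts. The epithelial list summed to 46.62 to 48.42 CPM in pGIPZ-NC and 33.3 to 38.46 CPM in shUSP39, with KRT19 lower (24.2 ± 2.11 to 1.98 ± 0.258 CPM), KRT8 lower (28, 37 and 26 counts against 3, 0 and 0) and KRT18 higher (22.2 ± 1.69 to 33.1 ± 3.03 CPM), and the fibroblast list, nearly all COL3A1, to 1421 to 1472 and 794.1 to 849.8 CPM. The serous ovarian list summed to at most 5.126 CPM and the endothelial list to at most 1.753 CPM in any library. The part of these markers in the results below was not tested.

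PARP enzymes take ADP-ribose from NAD and attach it to proteins or nucleic acids. PARP10, PARP12 and PARP14 add single ADP-ribose units, PARP9 works in a complex with the ubiquitin ligase DTX3L, and ZC3HAV1, also called PARP13 or ZAP (zinc finger antiviral protein), is an inactive member of the family that binds CpG-rich viral RNA and leads it to decay. In many cell types the genes are induced by interferon, through the factor ISGF3, which contains IRF9 and binds the interferon-stimulated response element (ISRE).

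The start regions of the genes were searched for the ISRE core, written GAAANNGAAA where N is any base, on both strands. The windows were those RefSeq gives around each start on GRCh38.p14, such as chr3:122564088-122564387 for DTX3L and chr3:122680589-122680888 for PARP14. All 3 members on chromosome 3 held a match, and the matches are shown because the ISRE is the element through which interferon is known to act on such genes. Capitals mark the core, and each line reads 5′ to 3′ on the strand of its gene.

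DTX3L (GRCh38.p14, chr3:122564312-122564361, plus strand): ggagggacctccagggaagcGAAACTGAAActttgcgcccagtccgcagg
PARP9 (GRCh38.p14, chr3:122564312-122564361, minus strand): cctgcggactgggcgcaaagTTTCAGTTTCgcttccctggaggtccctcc
PARP14 (GRCh38.p14, chr3:122680790-122680839, plus strand): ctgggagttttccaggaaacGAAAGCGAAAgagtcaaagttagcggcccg

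The DTX3L and PARP9 lines are the same bases read from opposite strands, since both genes start from a shared region and run in opposite directions. The core started at position -6 relative to the DTX3L start and at position -41 relative to 1 of the 2 PARP9 starts, and the other PARP9 window held none. In PARP14 it started at -29, and a GAS (gamma-activated site, TTCNNNGAA, a motif that reads the same on both strands) lay beside it at -40. The PARP12 window held the ISRE core at -10. The ZC3HAV1 window held a GAS at -104 and no match to these ISRE letters, and a PARP10 window was not used here. Of all 35116 promoter windows, 1255 (3.57%) held the ISRE core and 2689 (7.66%) the GAS. These are matches of letters, and binding was not measured.

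In the comparison of shUSP39 with pGIPZ-NC, the question was what depletion of USP39 did to transcript levels. The summed levels of the 4 genes were close in both groups. In bulk RNA, fewer cells that express a gene and less RNA per cell cannot be told apart. The fitted log2 fold changes ran from -0.09 to 0.18 with a median of 0.05, against a median of 0.01 over all 10695 genes tested. By the quasi-likelihood test of edgeR, 0 of 4 passed an adjusted p of 0.05, at which 33.6% of all genes were called (16.1% higher and 17.5% lower in shUSP39), and 0 of 4 passed it with a change beyond 2-fold, against 6.81% of all genes. The count was also 0 of 4 at an unadjusted p under 0.05, and 0 in DESeq2 and in limma-voom, adjusted or not. At the adjusted p it was 1, ZC3HAV1, under upper-quartile scaling. In 0 of 4 genes were the groups free of overlap, against 44.5% of all genes tested. Because these values were known when the genes were chosen, they are a description, and the counts of calls are no test of these genes.

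PARP14 carries macrodomains, which bind ADP-ribose, beside its catalytic domain. The gene lies at chr3:122399686-122449687 on the plus strand of GRCh37, with 17 exons. Its level was 199.1, 184.5 and 191.2 CPM in pGIPZ-NC replicates 1 to 3 and 206.4, 187.8 and 194.2 CPM in shUSP39 replicates 1 to 3. The highest value was a shUSP39 library and the lowest a pGIPZ-NC library, with the rest interleaved. The means were 191.6 ± 7.29 and 196.2 ± 9.48 CPM (SD, n = 3), a log2 fold change of 0.01 with a standard error (SE) of 0.04. The sign of this value turned when shUSP39 replicate 1 (-0.03), pGIPZ-NC replicate 2 (-0.02) or pGIPZ-NC replicate 3 (-0.0032) was left out, and it was 0.08 without shUSP39 replicates 2 and 3 together.

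DTX3L, the ubiquitin ligase that pairs with PARP9, lies at chr3:122283185-122294050 on the plus strand of GRCh37, with 5 exons. Its level was 94.3, 84.03 and 91.43 CPM in pGIPZ-NC and 91.29, 87.34 and 78.64 CPM in shUSP39. The lowest library was shUSP39 replicate 3 and the highest pGIPZ-NC replicate 1, and the other libraries of the groups overlapped. The means were 89.9 ± 5.30 and 85.8 ± 6.47 CPM (SD, n = 3), and the log2 fold change was -0.09 (SE 0.06). Without shUSP39 replicates 2 and 3 together this log2 fold change was -0.0006, and without shUSP39 replicate 3 alone it was -0.04.

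PARP9 itself lies next to DTX3L, at chr3:122246771-122283424 on the minus strand of GRCh37. The genes overlap where they start, and the use of strand in counting is not stated, so reads from the overlap cannot be told apart. PARP9 had 393, 320 and 210 counts in pGIPZ-NC and 356, 379 and 301 counts in shUSP39. These were 12.19, 9.715 and 7.422 CPM against 11.2, 12.53 and 10.23 CPM. The control libraries spread more widely than the shUSP39 libraries, and both the lowest library and the second highest were controls. The means were 9.78 ± 2.38 and 11.3 ± 1.16 CPM (SD, n = 3), and the log2 fold change was 0.18 (SE 0.15). This value depended on the control libraries, with 0.37 once pGIPZ-NC replicate 1 was left out and 0.01 once pGIPZ-NC replicate 3 was. Leaving out shUSP39 replicate 2 gave 0.11.

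PARP10, whose targets include the protein itself, lies at chr8:145051321-145086940 on the minus strand of GRCh37. The single row of PARP10 held 2, 0 and 0 counts in pGIPZ-NC and 0, 2 and 1 counts in shUSP39, which is at or under the level that a count of 0 allows (3 counts), so no fold change was computed. The row stood for 1 of the 2 messenger RNA transcripts that RefSeq lists for PARP10, and the other transcript was not analysed here.

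ZC3HAV1, at chr7:138728261-138816868 on the minus strand of GRCh37, was the other gene with a high level. Its summed level was 176.1, 164.7 and 159.9 CPM in pGIPZ-NC and 184.7, 187.3 and 167.1 CPM in shUSP39. Of the controls, replicate 1 was above shUSP39 replicate 3, and the other controls were below all shUSP39 libraries. The means were 166.9 ± 8.298 and 179.7 ± 10.99 CPM (SD, n = 3), and the log2 fold change was 0.08 (SE 0.05). It ranged from 0.04 without pGIPZ-NC replicate 3 to 0.13 without shUSP39 replicate 3. Under upper-quartile scaling, which moved the median over all genes tested from 0.01 to 0.05 on the log2 scale, ZC3HAV1 passed the adjusted p and its log2 fold change was 0.13.

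**Figure D1:**
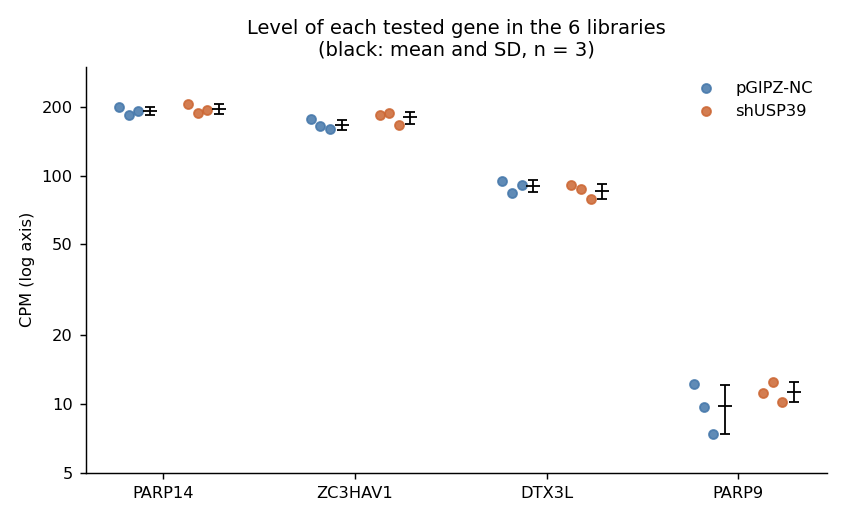
Level of the 4 genes that passed the filter on low counts, in CPM on a log axis, in the 3 pGIPZ-NC libraries (blue) and the 3 shUSP39 libraries (orange), with the mean and SD of each group in black. The groups overlap in each gene, PARP14 and ZC3HAV1 lie between 159.9 and 206.4 CPM, and PARP9 lies between 7.422 and 12.53 CPM.

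Per length of the transcript, the order of the genes was the same in both groups. In CPM per kilobase, PARP14 had a level of 24.9 ± 0.948 in the controls against 25.5 ± 1.23 in shUSP39, and ZC3HAV1 had 23.2 ± 1.16 and 25.0 ± 1.53 (SD, n = 3). The 6 libraries of PARP14 ran from 24.0 to 26.8 and those of ZC3HAV1 from 22.3 to 26.1, so these neighbours in the order overlapped. DTX3L came next, from 13.6 to 16.3 CPM per kilobase over the 6 libraries, and lay below both in all libraries. PARP9 followed at 3.21 ± 0.783 and 3.72 ± 0.379, and PARP10 came last, from 0 to 0.0189 CPM per kilobase.

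The gap between DTX3L and PARP9, which start from the same region, also touches on how the rows were made. PARP14 and DTX3L each have 1 messenger RNA transcript in RefSeq and 1 row in the table. PARP9 has 23 such transcripts in RefSeq and 2 rows, of which NM_001146106.1 held all but 1 of its counts and NM_031458.2 held 1 count in shUSP39 replicate 3. Across the table, genes with 1 RefSeq transcript had a median level of 1.07 CPM per kilobase (6540 genes), against 0.528 in genes with 2 to 4 (6137 genes), 0.36 with 5 to 9 (1907 genes) and 0.405 with 10 or more (1032 genes). How the counter treated reads shared by several transcripts is not stated, and its part in the low PARP9 level was not tested.

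The transcript rows of ZC3HAV1 did not move alike. The gene makes a long protein, ZAP-L, which ends in the PARP-like domain, and a short protein, ZAP-S, which lacks that domain and comes from a message that ends within an intron. ZAP-S is known as the form that interferon raises more strongly. In the table, NM_020119.3 stands for the long form and NM_024625.3 for the short form. The corresponding GENCODE models on GRCh37 have 13 exons and 902 codons for the long form, and 9 exons and 699 codons for the short form. Rows and models were paired by general knowledge of these forms, since the table and the annotation do not pair them.

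The 2 models share the first 9 exons apart from 1 base at the start and part at the 5′ splice site after exon 9, at chr7:138745782-138745884. The long form splices there and continues over an intron of 5740 bases to 4 more exons with 4692 bases in all. The short form reads on for 698 bases into the intron, at chr7:138745084-138745781, and meets the stop codon TAA after 1 coding base. The sequence around this splice site is shown because the models part there, with 30 bases of exon 9, then the first 6 bases of the intron in capitals, which hold the stop codon of the short form, and then the bases that follow.

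ZC3HAV1 exon 9 end (GRCh37, chr7:138745752-138745811, minus strand): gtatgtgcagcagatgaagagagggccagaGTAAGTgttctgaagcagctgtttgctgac

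The short row NM_024625.3 held 76, 91 and 78 counts in pGIPZ-NC and 239, 217 and 168 counts in shUSP39. In CPM these were 2.358, 2.763 and 2.757 against 7.519, 7.176 and 5.712. The lowest shUSP39 library lay above the highest control, without overlap. The means were 2.63 ± 0.232 and 6.80 ± 0.960 CPM (SD, n = 3), a log2 fold change of 1.35 (SE 0.19), or 2.55-fold. Among the 5 member rows tested, this was the only 1 beyond 2-fold at an adjusted p under 0.05 and the only 1 whose groups did not overlap, beside 6.42% (4.27% higher) and 41.3% of the 12553 transcript rows tested. The rows of ZC3HAV1 were set against each other when the genes were chosen, so these values are a description of the row and no test of it. With each library left out in turn the log2 fold change stayed between 1.27 and 1.46, and it was 1.496 without shUSP39 replicates 2 and 3 together.

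The long row NM_020119.3 held 5600, 5334 and 4447 counts in pGIPZ-NC and 5631, 5448 and 4747 counts in shUSP39. In CPM these were 173.7, 161.9 and 157.2 against 177.1, 180.2 and 161.4. The groups overlapped, and the means were 164.3 ± 8.52 and 172.9 ± 10.1 CPM (SD, n = 3), a log2 fold change of 0.05 (SE 0.05). This log2 fold change lay between 0.0065 and 0.09 when single libraries were left out, the lowest without pGIPZ-NC replicate 3 and the highest without shUSP39 replicate 3.

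The short row held a small part of the ZC3HAV1 counts in every library. It took 1.34% of the gene's counts in pGIPZ-NC replicate 1 (exact 95% binomial interval 1.06 to 1.67%), 1.68% in replicate 2 (1.35 to 2.06%) and 1.72% in replicate 3 (1.37 to 2.15%). In shUSP39 it took 4.07% in replicate 1 (3.58 to 4.61%), 3.83% in replicate 2 (3.35 to 4.36%) and 3.42% in replicate 3 (2.93 to 3.97%). No interval of a shUSP39 library touched that of a control, and these intervals cover counting error only. The mean share was 1.58 ± 0.210% in the controls against 3.77 ± 0.330% in shUSP39 (SD, n = 3), 2.19 percentage points higher. With counts divided by transcript length, the shares were 3.49 ± 0.456% and 8.12 ± 0.680%, a difference of 4.63 percentage points. Counts of the long row outnumbered those of the short row 63.1 ± 9.20 to 1 in pGIPZ-NC and 25.6 ± 2.39 to 1 in shUSP39. The models share their first 9 exons, and how the counter divided reads from these exons between the rows is not stated. All these values are therefore shares of counts, and the share of each form among the messages was not measured.

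In mean CPM, the larger part of the difference in the summed level of ZC3HAV1 was nevertheless in the long row. The mean of the long row was 8.63 CPM higher in shUSP39 and that of the short row 4.18 CPM higher, although the former difference was less than the SD of the shUSP39 libraries. Without pGIPZ-NC replicate 3 the fitted log2 fold change of the long row was 0.0065, against 1.37 in the short row, so this split was not stable. Unspliced RNA with reads in the 698 bases past exon 9 would also be counted in the short row, and its part in the difference was not tested. Among the 1356 genes with 2 tested rows, the log2 fold change of the lesser row minus that of the greater row had a median of 0.05. In ZC3HAV1 it was 1.3004, and 35 genes (2.58%) had a difference at least as high, or 62 genes (4.57%) counting both directions. The rows of ZC3HAV1 were set against each other when the genes were chosen. These shares therefore only describe where ZC3HAV1 lies and are no test of it.

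**Figure D2:**
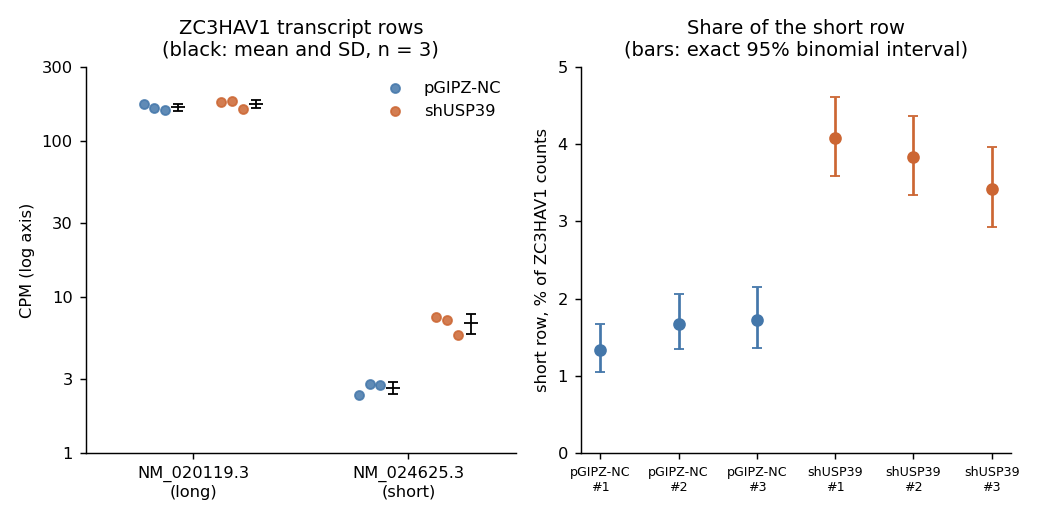
Left, level of the long (NM_020119.3) and the short (NM_024625.3) transcript row of ZC3HAV1 in CPM on a log axis in each library, with mean and SD per group in black. Right, share of the short row in the counts of the gene in each library, with exact 95% binomial intervals. The long rows overlap between pGIPZ-NC (blue) and shUSP39 (orange), while the short row takes 1.34 to 1.72% in pGIPZ-NC and 3.42 to 4.07% in shUSP39.

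The genes whose pattern over the 6 libraries was closest to each gene were found by the root mean square difference of log2(CPM + 0.5), centred on the pGIPZ-NC mean, among 9082 genes with a mean of at least 1 CPM. For PARP9 these were GLCE (0.0561), CARMIL1 (0.0686) and STX10 (0.0709), and 15 genes lay within 0.1. For PARP14 they were SPOPL (0.0169), GBE1 (0.0215) and ZNF888 (0.0239). DTX3L was closest to ANKRD44 (0.0341), DRAM2 (0.0367) and TRMT10C (0.0367), and ZC3HAV1 to ZNF473 (0.0255), HSPA14 (0.0264) and MED13 (0.0266). PARP14, DTX3L and ZC3HAV1 had 1538, 1016 and 955 genes within 0.1, so their patterns were shared by many genes, and the list of PARP9 was far shorter. Levels of PARP9 also varied most between libraries of a group. Its pooled SD of log2(CPM + 0.5) was 0.26, against 0.062 to 0.098 in PARP14, ZC3HAV1 and DTX3L. The part of this spread in the shorter list was not tested.

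Genes that hold the ISRE core behaved in different ways in these cells. Of the 322 tested genes with a match in a start window, 27 (8.39%) passed the adjusted p and were higher in shUSP39 beyond 2-fold, against 311 (3.89%) of the 7996 tested genes whose windows held none and 4.53% of all genes tested. This difference in shares was not tested, and the count of 27 was 22 without shUSP39 replicates 2 and 3 together. At the adjusted p alone, 58 (18%) were higher and 54 (16.8%) lower, and the median log2 fold change was -0.0031, against 0.0034 in genes without a match. Some of these genes are named here after their values were seen. IFNL1 (a type III interferon), RSAD2, CXCL10 and IFI44 had at most 4 counts in any pGIPZ-NC library and 75 to 571 counts in the shUSP39 libraries. ISG15, an interferon-induced ubiquitin-like protein, had a log2 fold change of 2.97 (adjusted p = 3.05e-26 by edgeR), and IFIH1, a sensor of double-stranded RNA, of 2.84 (adjusted p = 1.45e-16). Other interferon-linked genes with the core were lower in shUSP39, such as BST2, which tethers virus particles (log2 fold change -0.77, adjusted p = 7.01e-12), and the GTPase GBP1 (log2 fold change -0.42, adjusted p = 1.60e-07). PARP9, PARP14 and DTX3L were among the 322 genes, with log2 fold changes of 0.18, 0.01 and -0.09, beside the median of -0.0031.

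**Figure D3:**
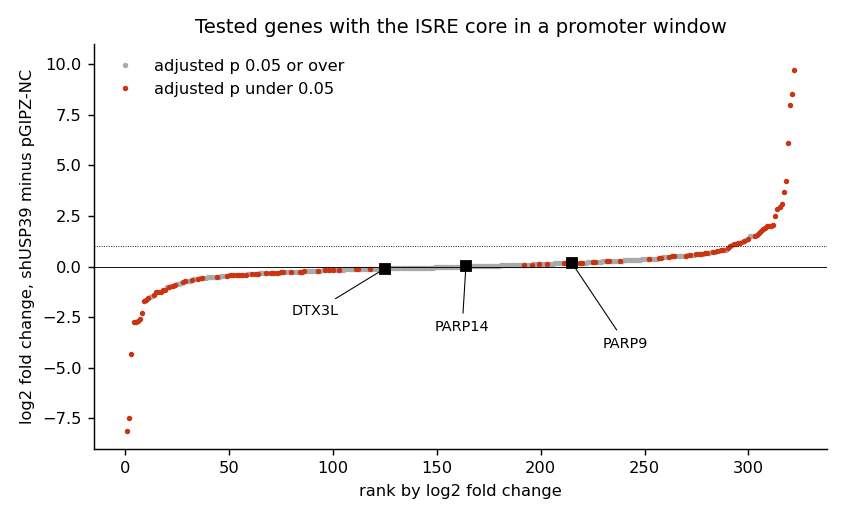
Log2 fold change, shUSP39 minus pGIPZ-NC, of the 322 tested genes with the ISRE core in a start window, ordered from lowest to highest, with genes at an adjusted p under 0.05 in red and others in grey. The black squares mark DTX3L (-0.09), PARP14 (0.01) and PARP9 (0.18), which lie on the flat part of the curve, and the dotted line marks a 2-fold rise.

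Transcription factors of the interferon response, IRF9, STAT2, IRF1 and IRF7, all had rows and were tested. Of these 4 genes, 2 rose and 0 fell, beside 16.1% and 17.5% of all genes tested, and the median log2 fold change was 0.42. IRF9, the DNA-binding part of ISGF3, rose (log2 fold change 0.44, SE 0.10, adjusted p = 0.000754 by edgeR), from 18.9 ± 2.11 to 26.0 ± 1.79 CPM. IRF1 rose (log2 fold change 0.41, SE 0.08, adjusted p = 0.000325). STAT2 was low in both groups at 1.33 ± 0.346 and 1.14 ± 0.0968 CPM, with a log2 fold change of -0.25 (adjusted p = 0.651), and IRF7 had 1.11 (adjusted p = 0.0529). IRF7 lay close to the threshold and passed it in 8 of 15 alternatives (adjusted p from 0.0208 to 0.198), among them those without pGIPZ-NC replicate 3 (0.0208) and without shUSP39 replicate 2 (0.0312). Without shUSP39 replicates 2 and 3 together, which leaves 1 shUSP39 library, the log2 fold changes were lower, at 0.33 for IRF9 and 0.26 for IRF1.

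Of 12 other genes of the PARP family, 9 were tested, and 1 rose and 2 fell, a share near the 33.6% called over all genes, with a median log2 fold change of -0.12. PARP1, the main DNA-damage-activated PARP, had 33609, 34215 and 30266 counts in pGIPZ-NC and 25970, 23810 and 23697 in shUSP39. All shUSP39 libraries were lower (log2 fold change -0.41, SE 0.03, adjusted p = 2.60e-11 by edgeR). PARP4, the PARP of vault particles, fell from 295.9 ± 2.52 to 218.8 ± 1.11 CPM (log2 fold change -0.46, SE 0.04, adjusted p = 1.39e-10). TNKS2, a tankyrase, rose from 108.6 ± 0.984 to 148.2 ± 2.84 CPM (log2 fold change 0.42, SE 0.05, adjusted p = 3.81e-08). Its relative TNKS had a log2 fold change of -0.09 (adjusted p = 0.111). All 3 calls were past the threshold in every alternative tried, and no start window at hand for this list held the ISRE core.

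Partners of the members were read from 3 lists. Of the 8 tested genes that assist ZAP in binding or degrading RNA, 1 rose and 1 fell, not above the 33.6% of all genes called, and the median log2 fold change was 0.03. TRIM25, the ubiquitin ligase that ZAP needs, rose from 335.8 ± 9.60 to 375.9 ± 8.13 CPM (log2 fold change 0.14, SE 0.04, adjusted p = 0.00327 by edgeR). N4BP1, an RNase-domain protein, fell (log2 fold change -0.22, SE 0.06, adjusted p = 0.00292). KHNYN, a nuclease that acts with ZAP, had 4.66 ± 0.555 and 4.83 ± 0.658 CPM, and its log2 fold change was 0.03 (SE 0.19).

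Of the Deltex family, the relatives of DTX3L, 2 of 4 genes passed the filter and 1 rose, beside 16.1% of all genes. DTX4 had 96, 109 and 88 counts in pGIPZ-NC and 139, 183 and 110 in shUSP39 (log2 fold change 0.57, SE 0.21, adjusted p = 0.0389 by edgeR). This call was lost in DESeq2 (adjusted p = 0.0506) and limma-voom (adjusted p = 0.0584), and it was lost, at adjusted p from 0.0702 to 0.289, without any one of pGIPZ-NC replicates 1, 2 and 3 and shUSP39 replicate 2. Without shUSP39 replicates 2 and 3 together the adjusted p was 0.316. DTX3 had a log2 fold change of 0.33 (SE 0.20).

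Of the 5 tested genes that remove ADP-ribose or serve as cofactor, 0 rose and 2 fell, where 33.6% of all genes were called and 17.5% were lower, and the median log2 fold change was -0.14. HPF1, which lets PARP1 modify serine, fell from 77.9 ± 2.10 to 67.5 ± 3.09 CPM (log2 fold change -0.23, SE 0.06, adjusted p = 0.00255 by edgeR). ADPRHL2, the hydrolase that removes serine-linked ADP-ribose, also fell (log2 fold change -0.14, SE 0.05, adjusted p = 0.0387). That call was lost without any one of pGIPZ-NC replicates 1, 2 and 3 and shUSP39 replicates 1 and 2 (adjusted p from 0.0506 to 0.164), and under upper-quartile scaling (adjusted p = 0.167) and library size alone (adjusted p = 0.0925). Without shUSP39 replicates 2 and 3 together the adjusted p was 0.228. PARG and ADPRH were not analysed here.

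NAD is the substrate of the active PARPs, and of 7 tested genes of NAD synthesis 1 rose and 1 fell, again not above the 33.6% of all genes, with a median log2 fold change of -0.09. NAMPT, the rate-limiting enzyme of NAD salvage, rose from 302.2 ± 19.6 to 343.2 ± 12.2 CPM (log2 fold change 0.16, SE 0.04, adjusted p = 0.00494 by edgeR). QPRT, which makes NAD from the tryptophan pathway, fell (log2 fold change -0.20, SE 0.06, adjusted p = 0.00861). Without pGIPZ-NC replicate 2 neither passed (adjusted p = 0.0530 for NAMPT and 0.0749 for QPRT), and without pGIPZ-NC replicate 3 NAMPT did not (adjusted p = 0.0804). QPRT also did not pass when shUSP39 replicates 2 and 3 were left out together (adjusted p = 0.0945).

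**Figure D4:**
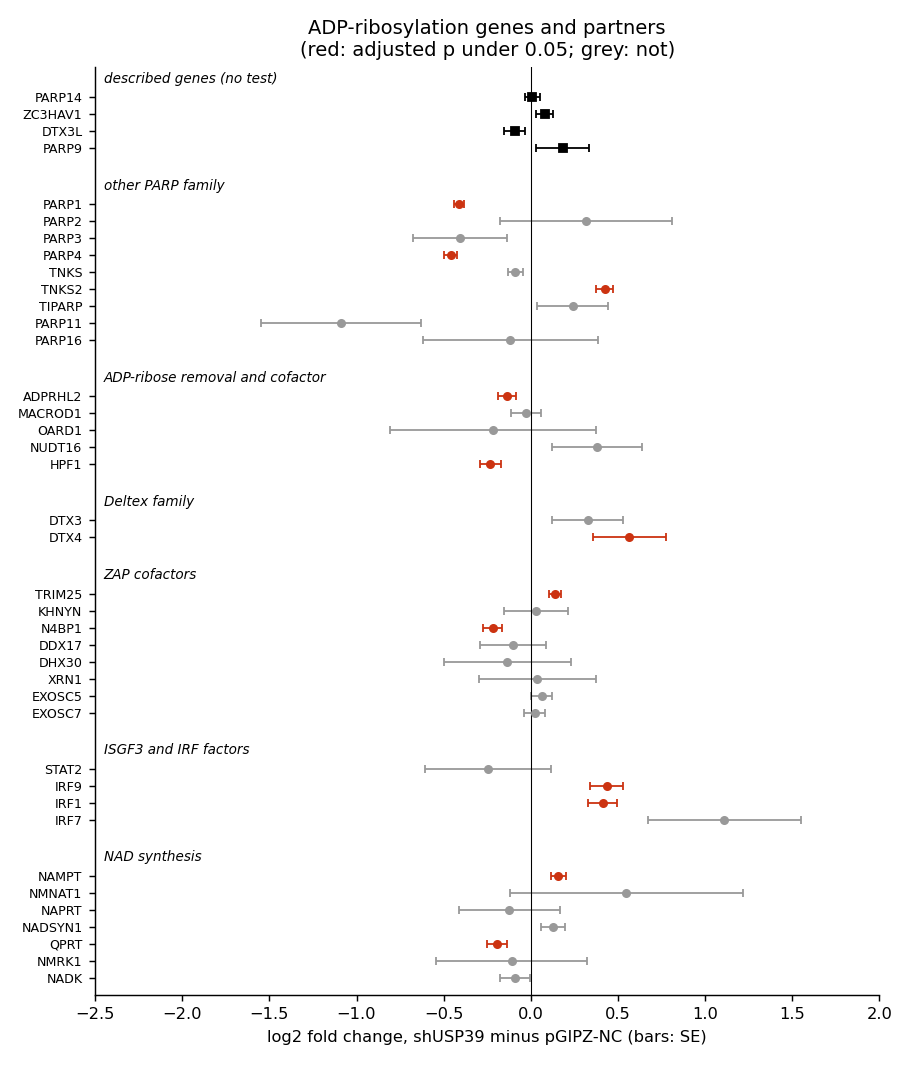
Log2 fold change, shUSP39 minus pGIPZ-NC, with its SE for the 4 described genes (black squares, no test shown) and for the tested genes of the 6 related lists, in red where the adjusted p was under 0.05 and in grey otherwise. The described genes lie between -0.09 and 0.18, IRF9 and IRF1 lie to the right of 0 and PARP1 and PARP4 to the left.

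The genes beside the members on the chromosomes were read as a last comparison. Of 12 neighbouring tested genes, 3 passed the adjusted p, under the 33.6% of all genes that did. On GRCh37 chromosome 3, FAM162A, a mitochondrial protein, lies at chr3:122103008-122131181 before the PARP9-DTX3L-PARP14 locus and fell from 187.0 ± 7.15 to 155.3 ± 3.97 CPM (log2 fold change -0.29, SE 0.04, adjusted p = 7.44e-06 by edgeR). The other 3 genes there, WDR5B (0.20), HSPBAP1 (-0.14) and PDIA5 (0.16), had adjusted p of 0.252 to 0.770. FAM162A and HSPBAP1 were themselves among the 322 tested genes with the ISRE core in a start window. At PARP10, EPPK1, a plakin family protein, rose from 8.11 ± 0.843 to 22.0 ± 3.94 CPM (log2 fold change 1.42, SE 0.13, adjusted p = 1.07e-09), while GRINA (0.19, adjusted p = 0.0528), PLEC (0.08, adjusted p = 0.688) and SPATC1 (1.32, adjusted p = 0.151) did not pass. GRINA lies within the annotated span of PARP10, and SPATC1 overlaps it at its start, so strand decides which gene their shared reads belong to. GRINA passed without shUSP39 replicate 1 (adjusted p = 0.0414) and without shUSP39 replicate 3 (adjusted p = 0.0336). In edgeR it also passed under upper-quartile scaling (adjusted p = 0.01715) and library size only (adjusted p = 0.0291). The same held under a minimum of 10 counts in all libraries (adjusted p = 0.0464) and a replicate block (adjusted p = 0.0300). It did not pass in DESeq2 or limma-voom, with DESeq2 size factors or no filter, or without any single other library. Beside ZC3HAV1, UBN2 rose (log2 fold change 0.18, SE 0.06, adjusted p = 0.0118), a call that was lost without pGIPZ-NC replicate 2 (adjusted p = 0.116) and without shUSP39 replicate 1 (adjusted p = 0.0563). The near relative ZC3HAV1L had 52.2 ± 4.95 CPM in the controls against 51.0 ± 0.969 CPM and a log2 fold change of -0.06 (adjusted p = 0.592).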

How the data were processed

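The authors deposited unnormalised counts of reads for each RefSeq transcript in each of the 6 libraries. The submitters' notes name hg19, HISAT2 and Cufflinks without roles, and the counter is not given in the sources used here. The deposited group means, folds, p-values and q-values were not used. Counts were summed per gene symbol, after 46 of 47 date-like symbols were replaced through their transcript names. Genes passing filterByExpr were TMM-scaled and tested with edgeR 4.0.16 (R 4.3.3, quasi-likelihood, robust, group only, Benjamini-Hochberg over all genes tested), and transcript rows in the same way. SEs were derived from the F statistics. CPM values were counts per 1000000 counts of the library. The genes and the related lists were chosen with earlier results of these data known. Lists were named by their genes past an adjusted p of 0.05, and likeness by the 3 closest genes. Positions came from GENCODE for GRCh37 and windows from RefSeq for GRCh38.p14, and levels per length used the MANE Select transcript, or the longest coding one. No replicate pair of a group agreed within sampling noise (chi-square per degree of freedom 4.74 to 7.81). On simulated counts for this comparison, with changes of 2-fold or more, 84.5% of 200 changed genes among 10695 were recovered, with 11 false calls. Smaller changes were not simulated. Alternatives were DESeq2 1.42.0, limma-voom (limma 3.58.1), other scalings, a stricter filter, a replicate block and left-out libraries. 1 gene of a related list is not reported here.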

Additional observations from a re-analysis of the deposited data

How the results depend on the processing

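The counts of called genes moved as follows. Of 10695 genes, 728 were called beyond 2-fold at an adjusted p under 0.05, 471 under a minimum of 10 counts in all libraries, and 3598 with no fold limit. Under upper-quartile scaling the count of ADP-ribose removal genes fell from 2 to 1 and 1 of the 4 described genes, ZC3HAV1, passed in place of 0, and 58.0% of the genes past the adjusted p, with no fold limit, were higher against 48.0% in the reported fit and 53.7% when scaling by library size only, where the removal genes were also 1. The Deltex count was 0 in DESeq2 and in limma-voom. Without shUSP39 replicates 2 and 3 together, an alternative chosen after seeing the data in which the lone library is assumed to vary like the controls, the counts were 1 for ADP-ribose removal, 0 for Deltex, 0 for the interferon response factors and 1 for NAD synthesis, and the log2 fold change of PARP14 was 0.0848. The short ZC3HAV1 share differed by 4.63 points per transcript length. The causes of these changes were not tested.

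With 1 library left out, called genes numbered 677 to 836, and the lists held 3 to 4 (PARP family), 1 to 2 (ADP-ribose removal), 0 to 1 (Deltex), 2 to 2 (ZAP cofactors), 2 to 3 (interferon response factors) and 0 to 2 (NAD synthesis) genes, the neighbours 2 to 4, the described genes 0 to 0 and ISRE genes beyond 2-fold 25 to 28. The log2 fold changes ran from 0.01 to 0.37 (PARP9), -0.03 to 0.04 (PARP14), -0.15 to -0.04 (DTX3L) and 0.04 to 0.13 (ZC3HAV1), and the share of the short row rose by 2.04 to 2.37 points. No clear pairing by replicate number was seen. Deviations of same-numbered libraries correlated at 0.0606, 0.00528 and 0.0166, and not every library correlated best with its own number. With 3 libraries per group, this check cannot show that the libraries were unpaired. With the replicate number as a block 745 genes were called, and GRINA (adjusted p = 0.0300) and IRF7 (adjusted p = 0.0373) passed in addition. Of 24 other genes named by rule, 16 kept their side of the threshold in those of the 15 alternatives that gave a value (SPATC1 and TTC26 have none under the count minimum). The sign turned in 3 genes without a call, PLEC (-0.07 without pGIPZ-NC replicate 1), ZC3HAV1L (0.0066 without pGIPZ-NC replicate 3) and KIAA1549 (-0.15 without shUSP39 replicates 2 and 3 together).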
